A study of Mus musculus with 8 samples.

Results

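The 753 sites described here were those at which an antibody against N6-methyladenosine (m6A) enriched RNA most in the mouse alpha cell line αTC1-6. They were chosen on the 4 libraries of cells given a scramble siRNA (SCR): the mean of the IP libraries, plus 0.5, had to be at least 6 times the mean of the Input libraries, plus 0.5, in CPM (counts scaled to each library's total), with a summed Input count of 10 or more on a nuclear chromosome. They are 753 of the 33774 sites in the table, and 753 of the 32345 nuclear sites that met the Input minimum. The IP to Input ratio of SCR cells is therefore how the sites were found and not a result, and the cells given Mettl14 siRNA (M14KD) supplied the values that the choice did not use.

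The assay was m6A-eCLIP, in which RNA crosslinked to the m6A antibody by ultraviolet light is sequenced (IP) beside RNA of the same preparation without antibody selection (Input). There were 4 groups of 2 libraries each: IP and Input of M14KD cells, and IP and Input of SCR cells. All came from 1 cell line, and αTC1-6 is an immortalized line rather than islet tissue. The labels do not say whether the replicates were separate cultures, so the tests measure the spread between libraries, which may be technical.

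m6A is the commonest internal modification of messenger RNA. A writer complex places it, with METTL3 as the catalytic subunit, METTL14 as the partner that holds the RNA, and proteins such as RBM15 and RBM15B that bring the complex to its targets. Marked transcripts are bound by YTH-domain reader proteins, which among other things speed the decay of the RNA, and many short-lived regulatory transcripts carry the mark.

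IP libraries held 10554570 and 10207383 counts in M14KD cells, against 10918559 and 10573976 in SCR cells. Input libraries held 3614519 and 3438530 counts in M14KD cells, against 3616603 and 3637740 in SCR cells. The 2 sites in Mettl14, the siRNA's target, summed to 8.85 and 6.40 CPM in M14KD Input, against 17.7 and 12.1 CPM in SCR Input. Both M14KD values lay below both SCR values. Neither site was strongly enriched. Gcg, the glucagon gene, had 23 sites, with mean Input levels summing to 57690.3 CPM in M14KD cells and 49958.6 CPM in SCR cells, and 9 of 12 alpha cell markers had a measured site. The listed markers of beta, delta, PP, acinar, endothelial, fibroblast and immune cells had none. Of the duct markers, Krt19 had none and Sox9 had 2 sites, both under the Input minimum. The table lists sites found by the authors, so a gene without a site has no level here. Levels are of RNA per library, so a shift in how many cells carry a transcript and a shift in RNA per cell cannot be told apart.

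Only 1 strongly enriched site had printable reference sequence, because it alone lay in a RefSeq promoter window, 20 bases after the start site of Fancl, a ubiquitin ligase of the Fanconi anaemia DNA repair pathway. The 29 bases around it, chr11:26387089-26387117 on the plus strand of GRCm38.p6, are shown to place the site in its letters, with the site base itself in capitals.
Fancl: accagttggcccagTtcattgtccaggtc
The 5-base m6A consensus (A, G or T, then A or G, then A, then C, then A, C or T) had 0 matches in this window on the gene's strand, and 134 of 407 windows (32.9%) built in the same way around the measured sites held one. The Fancl site had 27.8 and 22.2 CPM in M14KD IP and 1.66 and 3.20 CPM in M14KD Input, a ratio of 8.70. In SCR cells it had 22.7 and 22.4 CPM in IP and 2.49 and 0.825 CPM in Input, a ratio of 10.7 that rests on 12 Input counts.

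In M14KD cells, which had no part in the choice, all 753 sites were still enriched by the antibody relative to the other counts of each library. Every library was scaled to its own counts. A change in IP yield shared by all sites was thus not measured, here or against SCR cells. The median level of the 753 sites was 44.0 and 44.6 CPM in the M14KD IP libraries and 6.09 and 6.11 CPM in the M14KD Input libraries. Other sites had median levels of 16.2 and 16.2 CPM in M14KD IP and 9.68 and 9.60 CPM in M14KD Input. The strongly enriched sites therefore stood higher than the rest in IP and lower than the rest in Input. They took 4.32% and 4.39% of the counts in M14KD IP and 0.598% and 0.612% in M14KD Input.

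The test of M14KD IP over Input, edgeR's quasi-likelihood test with Benjamini-Hochberg adjustment over all sites, called 753 of 753 sites higher in IP at an adjusted p under 0.05. Over all sites tested, 34.3% were called higher and 33.7% lower. The highest adjusted p among the 753 was 0.00317. Their log2 fold changes ran between 0.86 and 4.95 with a median of 2.11, beside a median of 0.04 over all sites. All 753 passed the filter on low counts, and the count was also 753 without that filter. The scale of the fold changes depends on the normalization: the trimmed mean of M-values centres most sites near no change, whereas with column totals alone the median was 2.83 for the enriched sites and 0.76 for all sites, with 19704 sites called higher and 5706 lower in place of 11382 and 11188. Many enriched sites lie a few bases apart and can share reads, so the 753 are not independent.

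On the CPM scale, the M14KD ratio of the 753 sites had a median of 6.64 and quartiles of 5.72 and 7.95, against a median of 1.58 for the other 31592 sites. It ran between 2.82 and 32.8. A ratio of 6 or more was met by 511 of the 753 sites (67.9%), against 2.53% of all sites at the Input minimum. A ratio of 4 or more was met by 738 (98.0%), where all sites gave 9.97%, and a ratio of 3 or more by 751 (99.7%), where all sites gave 20.3%. In the single M14KD replicates 489 and 495 sites reached 6, and 370 did so in both. The core that reached 6 in every replicate of both genotypes was 281 sites in 166 genes, chosen in part by the SCR values.

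**Figure D1:**
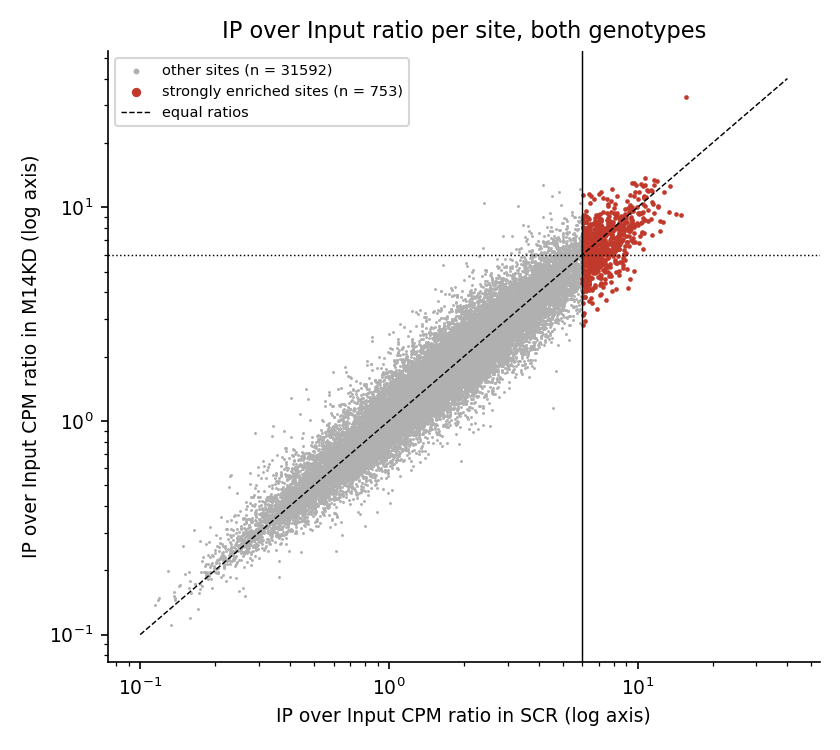
Each point is 1 of the 32345 nuclear sites at the Input minimum, with the IP over Input CPM ratio in SCR cells on the x axis and in M14KD cells on the y axis, both on log axes. The 753 strongly enriched sites (red) lie right of the line at 6 by choice. Their M14KD ratios spread around the dashed line of equal ratios, between 2.82 and 32.8, and 511 lie above the dotted line at 6.

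A site picked for a high value in noisy counts tends to read lower when measured again, so the same kind of list was also chosen on 1 replicate and read in the libraries that played no part. Of 825 sites that reached 6 in SCR replicate 1, 55.8% and 56.7% did so in M14KD replicates 3 and 4, against 58.3% in SCR replicate 2. Of 898 sites that reached 6 in SCR replicate 2, 55.7% and 54.5% did so in M14KD replicates 3 and 4, against 53.0% in SCR replicate 1. The M14KD shares were below the SCR share in the first list and above it in the second. Lists chosen on an M14KD replicate read much the same way: of 874 sites chosen on replicate 3, 55.6% reached 6 in M14KD replicate 4, against 51.7% and 57.2% in SCR replicates 1 and 2.

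**Figure D2:**
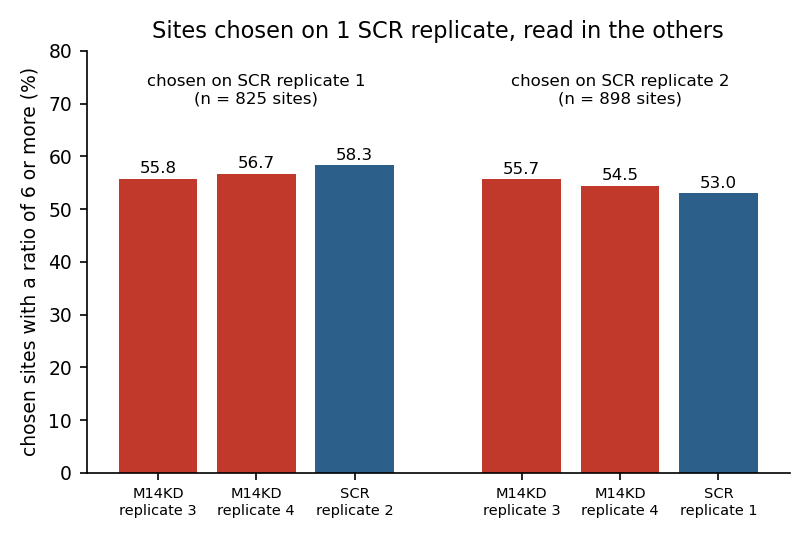
Bars give the share of sites (percent, from 0) with an IP over Input CPM ratio of 6 or more in each library pair that did not choose them, for the 825 sites chosen on SCR replicate 1 and the 898 chosen on SCR replicate 2. The 4 M14KD bars (red) lie between 54.5% and 56.7%, and the 2 SCR bars (blue) are 58.3% and 53.0%.

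The difference in log2 ratio, M14KD minus the SCR replicate that did not choose the sites, had a median of -0.05 in the first list and 0.01 in the second, where all sites gave -0.01 and 0.00. The mean of both medians was -0.02 ± 0.04 (SD over the 2 choices). Against the SCR replicate that chose them, the same sites gave -0.22 and -0.24. Both lists were read in the same M14KD libraries, so the 2 medians are not independent and no test was made.

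The rule applied to the M14KD libraries picked 778 sites. It shared 502 with the SCR list, 66.7% of the SCR list and 64.5% of the M14KD list.

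The sites belonged to 409 of the 6095 genes with a site at the Input minimum (6.71%). Of the 726 sites that could be given 1 gene name, 725 (99.9%) lay in a protein-coding gene, close to the 98.9% of other named sites. Most of the 409 genes, 243, had 1 strongly enriched site, and 34 had 4 or more. Of the 10 genes with the highest SCR ratio, 9 are described here, in order Sowahc, Jun, Fryl, Rbm15b, Fem1c, Trim25, Pex2, Inip and Nol12. Their M14KD ratios at the same sites ran between 8.48 at Trim25 and 32.8 at Sowahc.

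Sowahc (chr10:59223119) headed the list in both genotypes. It had 45.2 and 42.8 CPM in M14KD IP and 0.553 and 1.16 CPM in M14KD Input, a ratio of 32.8. SCR cells had 46.2 and 42.2 CPM in IP and 2.77 and 1.92 CPM in Input, a ratio of 15.7. The IP levels overlapped between genotypes, and the Input levels rest on 6 counts in M14KD cells and 17 in SCR cells, so the ratio at this site is imprecise.

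Jun (chr4:95049960), which encodes part of the AP-1 transcription factor, had 34.7 and 33.7 CPM in M14KD IP and 3.04 and 3.49 CPM in M14KD Input, a ratio of 9.21. The SCR libraries had 34.1 and 41.7 CPM in IP and 1.38 and 2.75 CPM in Input, a ratio of 14.96. IP overlapped between genotypes and Input did not, with both M14KD Input values above the SCR values. Low SCR Input is part of how the site was chosen, so the Input separation is not read as a change. The M14KD IP over Input log2 fold change was 2.66 (SE 0.24, edgeR adjusted p = 5.62e-16), and the difference between genotypes in IP over Input was not called.

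Rbm15b (chr9:106886052) encodes an RNA-binding subunit of the m6A writer complex. It had 89.3 and 108 CPM in M14KD IP and 6.09 and 8.72 CPM in M14KD Input, a ratio of 12.6. In SCR cells the site had 115 and 124 CPM in IP and 6.36 and 10.4 CPM in Input, a ratio of 13.5. Its IP values were lower in both M14KD libraries than in both SCR libraries without passing the test, and its Input values overlapped. High SCR IP is part of how the site was chosen.

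Nol12 (chr15:78937938), a nucleolar protein in ribosomal RNA processing, was the most deeply covered of the 9, with 209 and 233 CPM in M14KD IP and 14.7 and 17.7 CPM in M14KD Input. SCR libraries gave 213 and 219 CPM in IP and 16.3 and 18.97 CPM in Input. Its ratio was 13.3 in M14KD cells and 11.9 in SCR cells, and both fractions overlapped between genotypes.

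Among the other genes at the top, Fem1c (chr18:46505245) is a substrate receptor of a cullin ubiquitin ligase and had a ratio of 11.8 in M14KD cells and 12.8 in SCR cells. Trim25 (chr11:89016794), a ubiquitin ligase of antiviral signalling, had 8.48 in M14KD cells and 12.7 in SCR cells. Pex2 (chr3:5561312), a peroxisome biogenesis protein, had 10.01 in M14KD cells and 12.1 in SCR cells. Fryl (chr5:73021914) had 9.32 in M14KD cells and 14.3 in SCR cells. These genes were ranked on the SCR value, one side of the comparison, and the differences at them were not tested as changes.

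**Figure D3:**
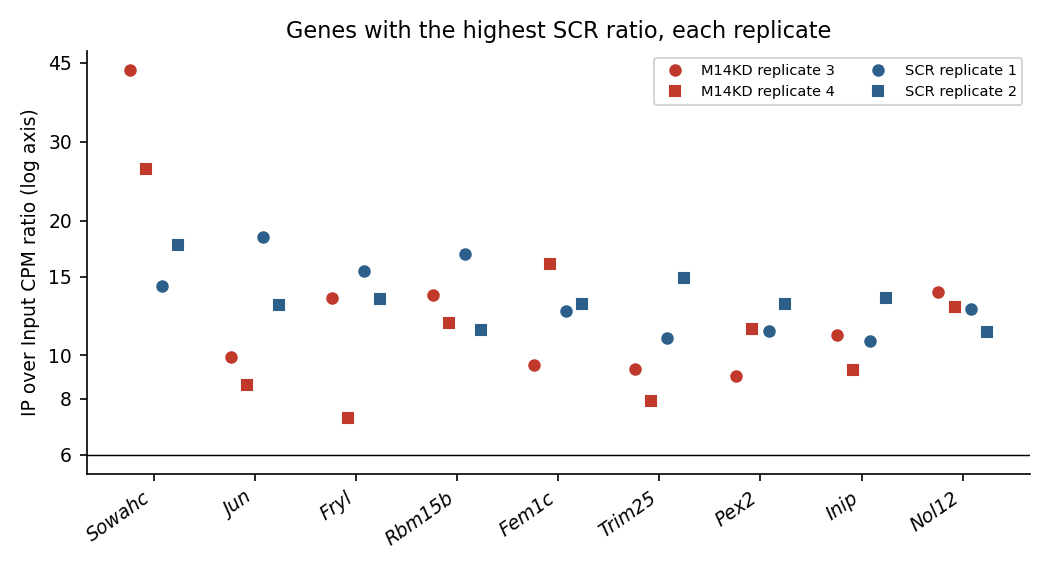
Points give the IP over Input CPM ratio (log axis) of each replicate at the best site of 9 of the 10 genes with the highest SCR ratio, M14KD replicates in red and SCR replicates in blue. Every point lies above the line at 6. Sowahc has M14KD values of 43.4 and 26.04, while Nol12 has all 4 replicates close together.

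The 5 genes with the highest M14KD ratio at their best site were Sowahc, Chpf2 (13.7 in M14KD, 10.7 in SCR), Nol12, Adnp2 (13.0 in M14KD, 9.66 in SCR) and Pfkfb2 (12.9 in M14KD, 10.3 in SCR). CHPF2 acts in chondroitin sulfate synthesis, and PFKFB2 sets the level of a sugar phosphate that drives glycolysis. Pfkfb2 (chr1:130690786) had 56.6 and 46.6 CPM in M14KD IP and 3.597 and 3.49 CPM in M14KD Input. In the SCR libraries it had 45.7 and 43.5 CPM in IP and 3.59 and 4.12 CPM in Input. Both its M14KD IP values were above both SCR values, without passing the test.

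At the other end stood Fzd1, a Wnt receptor, with a ratio of 2.82 in M14KD cells and 6.01 in SCR cells. Nol4 followed with 3.12 in M14KD and 6.05 in SCR, then Syt2, a calcium sensor of vesicle release, with 3.20 in M14KD and 6.09 in SCR. Plekhf2 had 3.35 in M14KD and 6.85 in SCR, and the zinc finger gene Zfp317 had 3.58 in M14KD and 6.55 in SCR. Fzd1 (chr5:4756219) had 12.4 and 15.7 CPM in M14KD IP and 5.26 and 4.07 CPM in M14KD Input. SCR cells gave 15.8 and 15.7 CPM in IP and 2.77 and 1.65 CPM in Input. Its Input values did not overlap, with M14KD higher, but low SCR Input is part of how the site was chosen. The M14KD IP of Fzd1 was 0.86 above Input on the log2 scale (SE 0.26, edgeR adjusted p = 0.00308). All 5 genes had SCR ratios between 6.01 and 6.85, and their summed M14KD Input counts were 19 to 33. Their summed SCR Input counts were 16 at Fzd1, 12 at Zfp317 and 10, the minimum of the rule, at Nol4, Syt2 and Plekhf2. Their SCR ratios, one side of the comparison, were thus imprecise.

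The threshold itself cut through a continuum. Just inside it, Elf3 had a ratio of 4.59 in M14KD cells and 6.00 in SCR cells, Dusp3 had 4.43 in M14KD and 6.00 in SCR, and Frs2 had 8.06 in M14KD and 6.00 in SCR. Just outside, Foxf2 had 5.80 in M14KD and 5.996 in SCR, Urgcp had 3.66 in M14KD and 5.99 in SCR, and Ddx11 had 4.90 in M14KD and 5.99 in SCR.

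The enriched sites lay close to other measured sites, whether or not those were enriched. Another measured site lay within 10 bases of 47.0% of them, against 22.2% of other sites, and within 100 bases of 94.4%, against 74.0% of other sites. With 1 site kept per 100 bases, the shares within 10 bases were 37.0%, against 11.7% of other sites. When measured sites were joined at gaps of at most 100 bases, the 753 lay in 457 groups of sites, and 31 genes had them in more than 1 group. The other 31592 sites lay in 15379 groups. Whether enriched sites grouped with each other more than other sites did was not tested.

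Of the 409 genes, 399 also had a measured site outside the list. Around each gene's best site, the M14KD ratio of the other sites had a median of 5.70 at 1 to 10 bases (175 sites), 4.91 at 11 to 25 bases, 4.23 at 26 to 50 bases and 2.92 at 51 to 100 bases. It was 2.30 over 100 and up to 200 bases and 1.72 beyond 2000 bases (782 sites). The SCR medians were 6.09 at 1 to 10 bases, 2.74 at 51 to 100 bases and 1.67 beyond 2000 bases, but the best site was picked on the SCR ratio, so these are given as a description and are not compared with M14KD. Neighbouring sites can share reads, and the part of shared reads in this pattern was not tested.

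**Figure D4:**
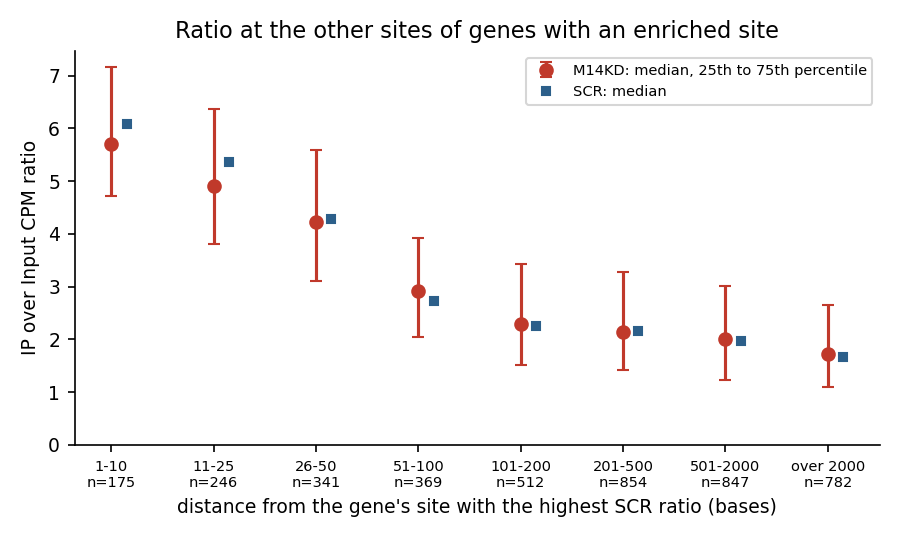
The x axis groups the other measured sites of the genes with a strongly enriched site by their distance in bases from the gene's best site, and the y axis is the IP over Input CPM ratio. Red points and bars are the M14KD median and quartiles, and blue squares are the SCR median, a description because the best site was picked on SCR values. The M14KD median is 5.70 in the nearest group and 1.72 in the farthest.

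Inip, a subunit of the SOSS complex in DNA repair, had the most strongly enriched sites, 9 of its 15. They lay within 226 bases (chr4:59772068-59772294), their M14KD ratios ran between 4.06 and 10.1, and 5 reached 6 in M14KD cells. At the best of them, Inip had 45.1 and 47.3 CPM in M14KD IP and 3.597 and 4.65 CPM in M14KD Input. For SCR the values were 46.6 and 54.1 CPM in IP and 3.87 and 3.57 CPM in Input.

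Ccnt2, a cyclin of the elongation factor P-TEFb, had 8 of 17 sites on the list within 320 bases, and 7 of them reached 6 in M14KD cells. At the best of them (chr1:127803507) it had 84.1 and 74.8 CPM in M14KD IP and 10.8 and 7.27 CPM in M14KD Input, against 79.9 and 65.8 CPM in SCR IP and 8.57 and 4.67 CPM in SCR Input. Both fractions overlapped between genotypes. Mfsd4b4 had 8 sites, 6 of which reached 6 in M14KD cells. Mars2, the mitochondrial methionyl-tRNA synthetase, had 7 sites, 5 of which did so.

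Rnf157, a ubiquitin ligase, had 6 sites, all at 6 or more in M14KD cells (6.35 to 13.0). Foxp1, a forkhead transcription factor, had 6 sites, 5 of which reached 6. Zfp91 and Thap7, both zinc finger proteins, had 5 sites each, and all 10 reached 6 in M14KD cells.

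**Figure D5:**
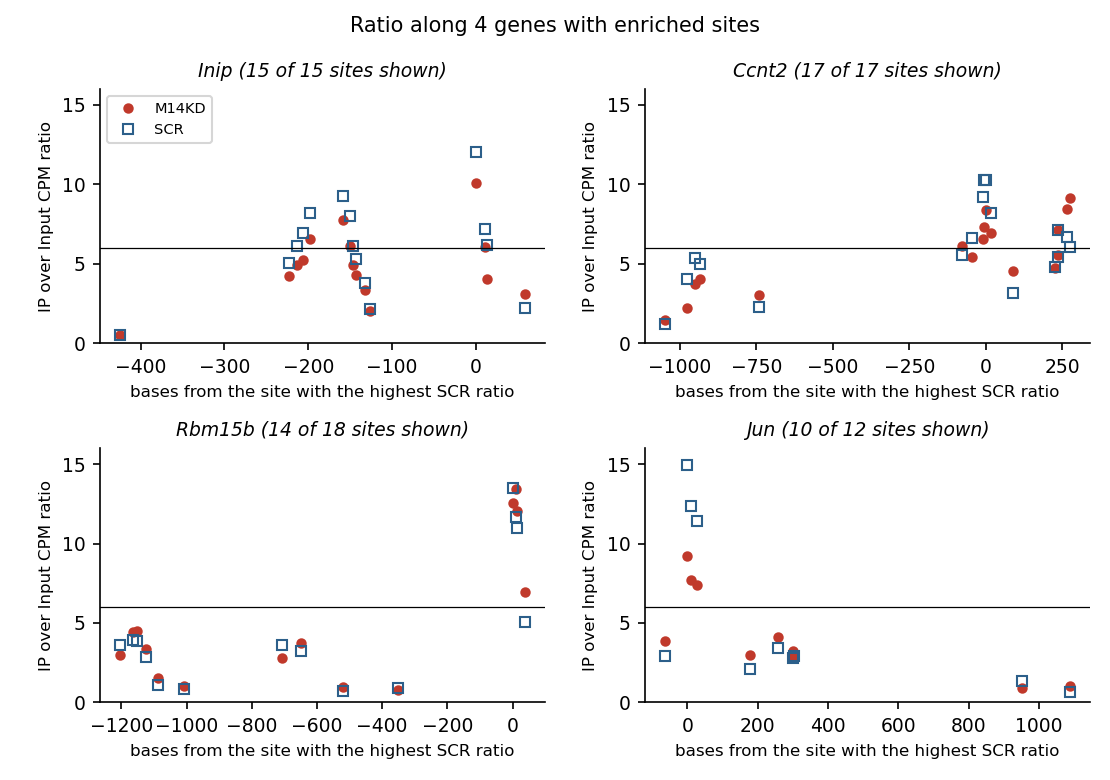
Each panel plots the IP over Input CPM ratio of the measured sites of Inip, Ccnt2, Rbm15b or Jun against their distance in bases from the gene's site with the highest SCR ratio, within 1500 bases (15 of 15, 17 of 17, 14 of 18 and 10 of 12 sites). Red points are M14KD and open blue squares SCR, and the line marks a ratio of 6. In Jun the 3 sites above the line lie within 26 bases, with M14KD ratios of 7.38 to 9.21, and the sites further along lie below it in both genotypes.

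Enriched genes were set beside lists of genes relevant to m6A and to islet cells, against the 6.71% of all measured genes that had a strongly enriched site. The lists are short, and a count of 0 or 1 in them lies within 1 gene of that share. Of 6 measured writers of m6A, 1 (16.7%) had a strongly enriched site, Rbm15b. The 3 strongly enriched sites of Rbm15b, among 18 measured, had M14KD ratios between 12.1 and 13.5. Of 8 measured erasers and readers, 1 (12.5%) had one, Ythdf3, a cytoplasmic m6A reader, with a ratio of 4.97 in M14KD cells and 8.21 in SCR cells at its best site (chr3:16204230). Ythdf3 had 33.4 and 28.5 CPM in M14KD IP and 5.26 and 6.40 CPM in M14KD Input. The SCR values were 37.1 and 22.2 CPM in IP and 4.70 and 1.65 CPM in Input. Its IP levels overlapped between genotypes, and both M14KD Input values were above the SCR values. Low SCR Input is part of how the site was chosen, so the Input separation is not read as a change.

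Of 16 measured immediate early and AP-1 genes, 3 had a strongly enriched site, which is 18.8% beside 6.71% of all genes. They were Jun, Jund and Ier5, an early response gene. By site, 7 of 124 in the list were strongly enriched, beside 726 of 30694 over all named sites. Ier5 (chr1:155098150) had 30.2 and 29.98 CPM in M14KD IP and 4.15 and 2.91 CPM in M14KD Input, against 29.9 and 30.6 CPM in SCR IP and 4.42 and 3.85 CPM in SCR Input. Its ratio was 7.60 in M14KD cells and 6.63 in SCR cells.

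Of 18 measured genes of signalling feedback, 3 had one (16.7%). They were Irs2, an adaptor of insulin signalling, Socs5, a suppressor of cytokine signalling, and Tob1, an antiproliferative adaptor of the deadenylase complex. By site, 6 of 151 in the list were strongly enriched, beside 726 of 30694 over all named sites. Socs5 (chr17:87135077) had 63.9 and 60.7 CPM in M14KD IP and 5.26 and 4.07 CPM in M14KD Input, against 62.2 and 63.9 CPM in SCR IP and 5.81 and 9.35 CPM in SCR Input. Its ratio was 12.2 in M14KD cells and 7.87 in SCR cells, with IP overlapping and both M14KD Input values below the SCR values. Neither the Input difference nor the difference in IP over Input was called. The Input levels rest on 33 counts in M14KD cells and 55 in SCR cells. Irs2 (chr8:10986320) had a ratio of 6.87 in M14KD cells and 6.50 in SCR cells, and Tob1 (chr11:94213735) had 7.70 in M14KD and 6.92 in SCR.

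Of 28 measured chromatin regulators, 5 had one (17.9%). These were the histone methyltransferases Kmt2b and Kmt2d, Setd5 of the same SET-domain family, the remodelling subunit Arid1b and the helicase Chd8. By site, 8 of 290 in the list were strongly enriched, near the 726 of 30694 over all named sites. Setd5 (chr6:113151305) was the most deeply covered, with 80.8 and 82.1 CPM in M14KD IP and 11.3 and 11.3 CPM in M14KD Input, against 88.8 and 81.7 CPM in SCR IP and 15.5 and 9.35 CPM in SCR Input. M14KD ratios at the best site were 6.92 at Setd5, 6.69 at Kmt2b, 6.12 at Arid1b, 4.98 at Kmt2d and 4.86 at Chd8.

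Of 14 measured secretory granule genes, 0 had a strongly enriched site. Their 133 sites had a median ratio of 0.585 in M14KD cells and 0.577 in SCR cells, below the median of all named sites, 1.62 in M14KD and 1.63 in SCR. Gcg was among them, and its highest SCR ratio was 0.643, with 0.666 in M14KD cells at that site. Of 10 measured amino acid transporters, 0 had one. Of 18 measured islet transcription factors, 1 (5.56%) had one, Tshz1 (chr18:84013102), with a ratio of 7.58 in M14KD cells and 10.6 in SCR cells. Of 17 measured stress response genes, 1 (5.88%) had one, Sesn2.

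Of 5 measured imprinted genes, 2 had one (40%), Peg10 with 61 measured sites and Zim1 with 44. Counted as sites, 6 of 117 in the list were strongly enriched, beside 726 of 30694 over all named sites. Zim1 had 4 sites, all of them at 6 or more in M14KD cells (6.37 to 8.32). Of 131 measured genes named Zfp, the mouse zinc finger names, 14 had one (10.7%), with 26 sites among them. Zfp91 led this family in SCR cells, and at its best site (chr19:12770020) had 106 and 106 CPM in M14KD IP and 13.3 and 9.60 CPM in M14KD Input, against 105 and 98.3 CPM in SCR IP and 8.85 and 9.62 CPM in SCR Input. These shares are descriptions, since genes with a strongly enriched site also had more measured sites (a median of 9, against 3 for the other genes).

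Strongly enriched sites lay in somewhat longer genes than the other sites, with a median gene span of 29196 bases against 25079 bases. The share in genes spanning over 100000 bases was 16.4%, against 11.99% of other sites, and in genes spanning up to 5000 bases 13.6%, against 11.2%. They were found on every autosome and on the X chromosome, between 1.39% of eligible sites on chromosome 13 and 3.06% on chromosome 11.

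M14KD and SCR cells were also compared directly. Scaling each library removes any change in IP yield shared by all sites, so such a change was not tested. The rule used the SCR libraries on one side of this comparison, so the values describe the sites and nothing is read from the counts. M14KD IP against SCR IP was called lower at 7 (0.930%) and higher at 3 (0.398%) of the 753 sites (edgeR's quasi-likelihood test, adjusted p under 0.05), where all sites gave 0.375% lower and 0.255% higher. The median log2 fold change was -0.00 for the enriched sites and 0.01 for all sites. The calls lay in 7 genes. Their number fell when M14KD replicate 3 was left out and rose when SCR replicate 1 was left out. The calls over all sites moved in the same directions, so this is not particular to the enriched sites.

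Peg10, an imprinted gene of retrotransposon origin, was lower at both its strongly enriched sites, 2 of its 61 measured sites. At chr6:4757974 it had 135 and 124 CPM in M14KD IP, against 224 and 181 CPM in SCR IP, which is -0.62 as a log2 fold change (edgeR adjusted p = 0.00864, SE 0.10). Its Input was also lower, at 13.3 and 10.2 CPM in M14KD cells against 19.1 and 15.7 CPM in SCR cells, without passing the test (log2 fold change -0.54). Neither fraction overlapped between genotypes.

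Jund, the AP-1 subunit related to Jun, was the most deeply covered of the sites called lower (chr8:70700141). It had 269 and 284 CPM in M14KD IP, against 356 and 382 CPM in SCR IP, which is -0.39 as a log2 fold change (edgeR adjusted p = 0.0297, SE 0.08). Input was 36.0 and 38.4 CPM in M14KD cells, against 51.2 and 51.1 CPM in SCR cells (log2 fold change -0.44, not past the threshold). The M14KD ratio of 7.35 and the SCR ratio of 7.15 were therefore close.

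Rnf157 was lower at 2 of its sites, at -0.41 in log2 fold change for chr11:116338274 (edgeR adjusted p = 0.0283, SE 0.08) and -0.72 in Input, which did not pass the test. Sesn2, a stress-induced inhibitor of mTORC1 (chr4:132493494), had 77.5 and 86.2 CPM in M14KD IP, against 104 and 118 CPM in SCR IP, which is -0.41 as a log2 fold change (edgeR adjusted p = 0.0386, SE 0.09). Its Input overlapped, with a log2 fold change of -0.10. Aldh18a1, an enzyme of proline synthesis (chr19:40550570), was lower in IP at -0.36 in log2 fold change (edgeR adjusted p = 0.0437, SE 0.08), with -0.21 in Input.

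The sites called higher were 2 in 1600012H06Rik, at 0.49 in log2 fold change for chr17:14944006 (edgeR adjusted p = 0.0300, SE 0.10), and 1 in AA414768 (chrX:12937713). AA414768 had 92.9 and 97.4 CPM in M14KD IP, against 70.8 and 75.8 CPM in SCR IP, which is 0.40 as a log2 fold change (edgeR adjusted p = 0.0332, SE 0.08). Its Input overlapped, at 8.85 and 11.1 CPM in M14KD cells against 10.8 and 9.62 CPM in SCR cells. Of the 10 sites called in IP, 9 had an Input difference of the same sign, and no Input difference was called. The 10 sites lay in 7 genes and are not independent. The difference in IP over Input was called at none of the 10 (lowest unadjusted p = 0.108 in edgeR).

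In Input, 664 of the 753 sites passed the filter on low counts and 0 were called by edgeR or by DESeq2 at an adjusted p under 0.05, with 57 at an unadjusted p under 0.05 in edgeR. All sites gave 0.0697% higher and 0.0232% lower at the adjusted threshold, and 2620 of 30147 had an unadjusted p under 0.05 in edgeR. The median log2 fold change was 0.12 for the enriched sites and 0.00 for all sites, and low SCR Input is part of how the sites were chosen. For the difference between genotypes in IP over Input, 0 of 753 were called by edgeR or by DESeq2, with 45 at an unadjusted p under 0.05 in edgeR. All sites gave 0% higher and 0% lower at the adjusted threshold, and 1242 of 33356 had an unadjusted p under 0.05 in edgeR. The median log2 difference, M14KD minus SCR, was -0.13 for the enriched sites and -0.00 for all sites, and 489 sites lay below 0. The SCR ratio that chose the sites is one side of this difference, and nothing is read from its median.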

How the data were processed

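The deposited table held whole-number counts per site, not normalized, with 1 column for each of 8 libraries, per the file headers. STAR, cutadapt, UMI-tools and the mm10 build are named, without versions, per the submitters' processing notes. The sources used here do not give the site caller or the window counted per site. Per the labels' protocols, the antibody was crosslinked with ultraviolet light before gel and membrane steps.

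Column totals set the CPM used for the choice and the ratios (pseudocount 0.5 CPM). Tests used edgeR 4.0.16 in R 4.3.3 (filterByExpr, TMM, quasi-likelihood fit, Benjamini-Hochberg over all sites, threshold 0.05), with DESeq2 1.42.0 as an alternative. On simulated 2-fold changes edgeR recovered 82.6% for M14KD IP over Input and 90.3% between genotypes in IP. It recovered 50.6% between genotypes in Input and 52.2% in IP over Input, so changes there can go uncalled. Recovery at the enriched sites alone was not measured. Their median SE between genotypes was 0.309 in Input, against 0.250 for all sites. In IP over Input it was 0.334, against 0.301 for all sites. False calls were 0.99% to 8.65% of the calls. M14KD IP was set against Input in a fit of the 4 M14KD libraries alone. Same-numbered IP and Input libraries deviated together (correlation 0.119 in M14KD and 0.212 in SCR over 31921 sites), so the replicate number was also fitted as a block. Replicates of a group differed by more than counting noise (chi-square per degree of freedom 1.38 to 2.56), and at 20 to 22 median Input counts the Input sets the precision of each ratio.

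Sites were named by the 1 protein-coding gene, or with none the 1 other gene, whose RefSeq GRCm38.p6 span holds them; coordinates are the files', and the sequence is RefSeq's on GRCm38.p6. Of the named sites, 79.6% had a strand in the sources used, under the 80% required, so positions along the transcript are not given, and exon classes were not analysed here. Genes named are those with the 10 highest SCR ratios, the 8 with most sites, the 5 highest and 5 lowest M14KD ratios, sites called, listed genes and 3 sites on each side of the threshold; Fancl was named for its sequence, and 1 gene of the first rule is not reported here. The sites and lists were chosen with earlier results of these data known.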

Additional observations from a re-analysis of the deposited data

How the results depend on the processing

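The number of sites moved with the rule: 319 with a pseudocount of 2 CPM, 3091 at a ratio of 4, 202 at a ratio of 8, 299 with a summed Input count of 50 or more, 68 with TMM-scaled CPM and 422 when 1 site per 100 bases was kept, against 753; the other settings gave 634 to 960, and leaving out SCR replicate 1 or 2 gave 710 and 652. For M14KD IP over Input, 422 of 422 sites were called with 1 per 100 bases, 748 by DESeq2 and 753 of 753 with the replicate block. Leaving out both libraries of a replicate leaves no residual spread and was not run; leaving out each single M14KD library, added after seeing the data, gave 751 to 753. For M14KD against SCR in IP, 1 site per 100 bases gave 3 calls against 10, and leaving out a replicate gave 0 to 65: 65 without SCR replicate 1, 10 without SCR replicate 2, 0 without M14KD replicate 3 and 2 without M14KD replicate 4. In Input and in IP over Input between genotypes, 0 sites were called under each setting run, the replicate block included, which changed no call of these sites. The mean of the medians against the unused SCR replicate stayed between -0.03 and 0.00. With 1 site per 100 bases, 37.0% of enriched sites (11.7% of others) had a site within 10 bases, 90.05% (50.6%) within 100 bases, and 10.8% (10.001%) lay in genes spanning up to 5000 bases; an Input minimum of 20 gave 96.4% (76.9%) within 100 bases. Exon class, distance to the stop codon and the consensus match at all sites were not run, since no genome was at hand. Sites within 100 bases can share reads, Input depth limits each ratio, and 2 libraries per group limit every test.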
